A study of Mus musculus with 5 samples.

Results

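The 6 actin and 4 tropomyosin genes of the mouse were followed in RNA of embryonic heart ventricles: Actc1, Acta1, Acta2, Actb, Actg1, Actg2, Tpm1, Tpm2, Tpm3 and Tpm4. They were taken by gene symbol and are 10 of the 18307 genes of the RefSeq gene table, with 25 transcripts in the RefSeq transcript table and 72 in the Ensembl transcript table. All 10 genes and 22 of the 25 RefSeq transcripts passed the filter on low counts. The embryos were CD-1, an outbred strain, and were collected at E10.5 (embryonic day 10.5). Their dams had received daily injections, from E6.5 to E9.5, of caffeine at 20 mg/kg (3 libraries) or of 0.9% NaCl as vehicle (2 libraries). Each library was made from ventricles pooled across embryos of the same dams, so a pool stands for 1 replicate and spread between single embryos was not measured. The comparison addresses what caffeine given to the dam in early gestation does to the RNA of the embryonic ventricle.

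Actin is the protein of the thin filament, and tropomyosin is a coiled coil that lies along it. In striated muscle, tropomyosin moves with the troponin complex when calcium binds, which opens the sites on actin that myosin grips. Mammals make 4 muscle actins and 2 cytoplasmic ones from separate genes: cardiac Actc1, skeletal Acta1, vascular smooth muscle Acta2 and enteric smooth muscle Actg2, and the cytoplasmic Actb and Actg1. The embryonic heart is known to make smooth muscle and skeletal actin beside cardiac actin. The 4 tropomyosin genes give many proteins through alternative first, internal and last exons.

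The actin coding sequences are shown first because the genes differ mostly at scattered bases, which bears on how reads are told apart. Below are the first 60 coding bases of each gene, 5′ to 3′, from GENCODE M21 transcripts. Capitals mark bases that differ from Actc1 when the coding sequences are aligned without gaps from their 3′ ends.
Actc1: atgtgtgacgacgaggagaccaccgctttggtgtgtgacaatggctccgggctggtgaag
Acta1: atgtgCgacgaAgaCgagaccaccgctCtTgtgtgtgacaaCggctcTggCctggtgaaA
Acta2: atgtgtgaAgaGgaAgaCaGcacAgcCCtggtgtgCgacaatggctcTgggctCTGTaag
Actb: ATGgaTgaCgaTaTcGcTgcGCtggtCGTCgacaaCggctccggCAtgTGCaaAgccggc
Actg1: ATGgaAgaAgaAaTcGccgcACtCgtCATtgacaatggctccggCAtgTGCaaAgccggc
Actg2: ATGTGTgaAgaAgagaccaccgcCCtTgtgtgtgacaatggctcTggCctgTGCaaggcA
These stretches lie on the minus strand of mm10, each in 1 coding exon, at chr2:114051972-114052031, chr8:123893638-123893697, chr19:34252494-34252553, chr5:142905627-142905686, chr11:120348032-120348091 and chr6:83527382-83527441. Within them Acta1 differed from Actc1 at 9 bases, Acta2 at 14, Actg2 at 17, Actg1 at 20 and Actb at 22. Without the stop codon the coding sequences hold 377 codons in Actc1, Acta1 and Acta2, 376 in Actg2 and 375 in Actb and Actg1. Over the whole coding sequence Actc1 and Acta1 were 86.3% identical, with 155 of 1131 bases different. Actb and Actg1 were the closest pair at 88.6%, with a longest shared run of 62 bases. The longest run shared by any pair was 77 bases, between Acta1 and Actb. Since the sources used here give no read length, how many reads fell wholly inside such runs is unknown.

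The alternative exons of Tpm1 are shown because the transcripts differ by them. Tpm1 (chr9:67022593-67049213, minus strand) has 2 first exons (1a and 1b), a second exon used only with 1a that is 2a or 2b, a sixth exon that is 6a or 6b, and last coding exons 9a, 9c and 9d. The striated muscle form joins 1a, 2b, 6b and 9a. Exon 2a is known from smooth muscle, 1b from the short cytoskeletal forms, 9c from brain and 9d from smooth muscle and non-muscle forms. The sixth and last exons are printed from GENCODE M21, 5′ to 3′, and capitals mark the bases that differ within a pair.
Tpm1 exon 6a: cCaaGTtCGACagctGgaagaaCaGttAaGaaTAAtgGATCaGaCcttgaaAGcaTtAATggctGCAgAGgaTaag
Tpm1 exon 6b: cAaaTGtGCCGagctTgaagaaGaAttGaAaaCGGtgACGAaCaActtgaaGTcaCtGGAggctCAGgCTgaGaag
Tpm1 exon 9a: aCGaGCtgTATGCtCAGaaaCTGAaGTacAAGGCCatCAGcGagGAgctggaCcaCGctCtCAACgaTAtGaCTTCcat
Tpm1 exon 9d: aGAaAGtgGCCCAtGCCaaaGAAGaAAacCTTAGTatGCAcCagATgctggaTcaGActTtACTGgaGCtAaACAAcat
Exon 6a (chr9:67032466-67032541) and exon 6b (chr9:67031951-67032026) differed at 33 of 76 bases. Exon 9a (chr9:67029664-67029742) and the first 79 bases of exon 9d (chr9:67023363-67023441) differed at 45. Exons 2a and 2b, each 126 bases, differed at 66.

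RefSeq gene counts totalled 21713381 to 25048134 per library, and log2 levels of libraries correlated across genes at 0.982 to 0.992. Of 13829 genes tested with edgeR, 1 passed a false discovery rate of 0.05. Levels are in CPM, as edgeR's cpm function gives them: counts scaled to the library total multiplied by the library's TMM factor. For RefSeq genes these factors were 0.970 and 0.981 with vehicle and 1.02, 1.01 and 1.02 with caffeine. They raise vehicle values and lower caffeine values against counts scaled to the library total alone. The markers defining cardiomyocytes were abundant. Their summed levels were 28372 and 26399 CPM in vehicle replicates 1 and 2 and 24718, 23867 and 21813 CPM in caffeine replicates 1, 2 and 3. These sums were lower in every caffeine library, and 7 of the 9 cardiomyocyte markers had a negative difference. The 7 skeletal muscle markers summed to 6.43 and 3.92 CPM with vehicle and to 5.61, 6.40 and 5.40 CPM with caffeine. Among them the factors Myod1, Myog, Myf5 and Myf6 reached at most 0.0831 CPM, with Myf5 and Myf6 at 0 in 4 of 5 libraries, Myod1 in 3 and Myog in 2. Ckm and Chrng were detected in every library. Ckm was at 2.19 to 4.78 CPM, and Chrng was at 1.61 and 1.69 CPM with vehicle and 1.87, 2.97 and 2.31 CPM with caffeine. Markers of liver and foregut endoderm summed to 117 CPM in vehicle replicate 2 and to 7.26 to 37.7 CPM elsewhere. Erythroid markers summed to between 5992 and 10468 CPM. The difference was negative for 7 of 8 markers of endothelium and endocardium, where 47.0% of all tested genes were negative. It was positive for 4 of 5 markers of cushion mesenchyme and 5 of 5 of epicardium and mesothelium. In edgeR 0 genes of these lists passed.

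None of the 10 genes passed the test between caffeine and vehicle (0 of 10, where 0.00723% of all tested genes passed). At an unadjusted p under 0.05 the count was also 0 of 10, where 5.20% of all tested genes were, and DESeq2 and limma-voom called 0 of 10 as well. On the Ensembl gene table edgeR also called 0 of the 10, where it called 0.0130% of all genes. The difference of Tpm1 was the largest beside its SE (standard error). Of the 10 genes, 9 had a negative difference, against 47.0% of all tested genes. Tpm2 was the exception. Tpm1 was the gene whose libraries did not overlap between groups, being lower with caffeine (1 of 10, where 9.27% of all tested genes did not overlap in that direction). The number of members with higher non-overlapping values was 0 of 10, where the share of all tested genes was 11.2%. In pooled ventricles, fewer cells of a type and less RNA per cell cannot be told apart.

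**Figure D1:**
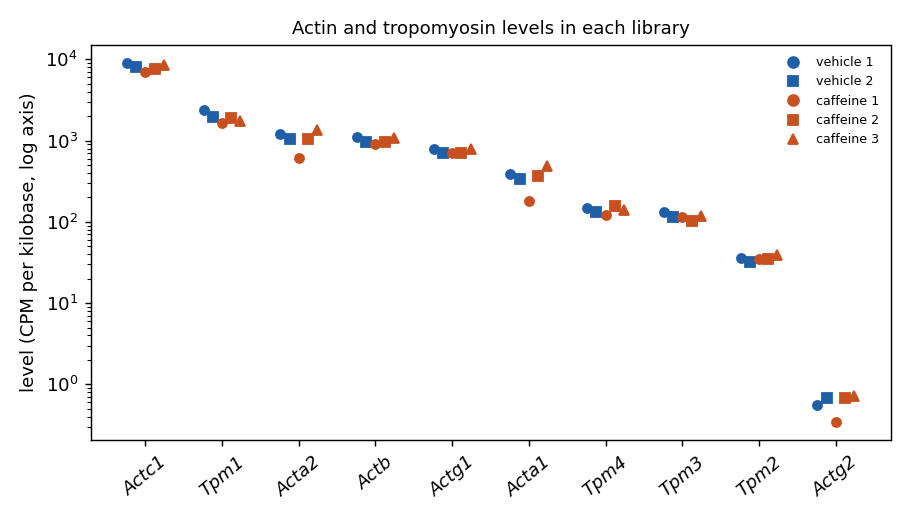
Level of each actin and tropomyosin gene in each of the 5 libraries, as CPM per kilobase of transcript on a log axis, with genes ordered by their mean. Blue symbols are vehicle and orange symbols caffeine libraries, Actc1 stands alone at the top between 7000 and 9132, and Actg2 stands at the bottom between 0.342 and 0.715.

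Levels can be compared between genes only per length. On the scale of CPM per kilobase of transcript, the mean over the 5 libraries was 8052 for Actc1 and 1915 for Tpm1, the next gene. Acta2 followed at 1054, Actb at 1007, Actg1 at 733 and Acta1 at 352. Below them stood Tpm4 at 139, Tpm3 at 117, Tpm2 at 35.4 and Actg2 at 0.594. Each gene was above the next in 5 of 5 libraries, except that Acta2 was above Actb in 4 of 5. Acta2 and Actb were therefore not separated beyond the spread of their libraries. Tpm4 and Tpm3 kept their order within each library although their ranges (121 to 155 and 103 to 131) overlapped. The 10 genes together took 2.31% and 2.03% of all gene counts with vehicle and 1.80%, 2.04% and 2.27% with caffeine.

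Actc1 (chr2:114047289-114052811, minus strand, 7 exons), the actin of the cardiac sarcomere, was the most abundant member. Its levels were 13479 and 11834 CPM in vehicle replicates 1 and 2 and 10322, 11294 and 12500 CPM in caffeine replicates 1, 2 and 3. The groups overlapped, since caffeine replicate 3 lay between the vehicle libraries. The means were 12657 ± 1163 CPM (SD, n = 2) with vehicle and 11372 ± 1091 CPM (SD, n = 3) with caffeine. The log2 fold change was -0.15 (SE 0.14, edgeR adjusted p = 0.999). Actc1 made up 72.2% and 72.4% of the summed actin level per kilobase with vehicle, and 74.5%, 71.3% and 69.6% with caffeine. These shares overlapped as well. Set against the summed cardiomyocyte markers of the same library, Actc1 stood at 47.5% and 44.8% with vehicle and at 41.8%, 47.3% and 57.3% with caffeine, again with overlap.

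Acta1 (chr8:123891758-123894775, minus strand, 7 exons), the skeletal muscle actin, was at 570 and 497 CPM with vehicle and at 260, 527 and 696 CPM with caffeine. The lowest and the highest library were both caffeine libraries. Its log2 fold change was -0.11 (SE 0.42, edgeR adjusted p = 0.999). Without caffeine replicate 1 the log2 fold change was 0.20, and without caffeine replicate 3 it was -0.44, so a single library set its sign. Per kilobase, Acta1 was at 4.31% and 4.28% of the Actc1 level with vehicle and at 2.56%, 4.76% and 5.68% with caffeine.

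Acta2 (chr19:34240336-34255373, minus strand, 9 exons), the vascular smooth muscle actin, had the same order of libraries. It was at 2451 and 2135 CPM with vehicle and at 1249, 2141 and 2769 CPM with caffeine. The vehicle libraries lay inside the caffeine range. The log2 fold change was -0.16 (SE 0.31, edgeR adjusted p = 0.999), and it was 0.10 without caffeine replicate 1. The ratio of Acta2 to Acta1 per kilobase was 3.06 and 3.05 with vehicle and 3.42, 2.88 and 2.82 with caffeine. Both genes thus moved between libraries in similar proportion.

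**Figure D2:**
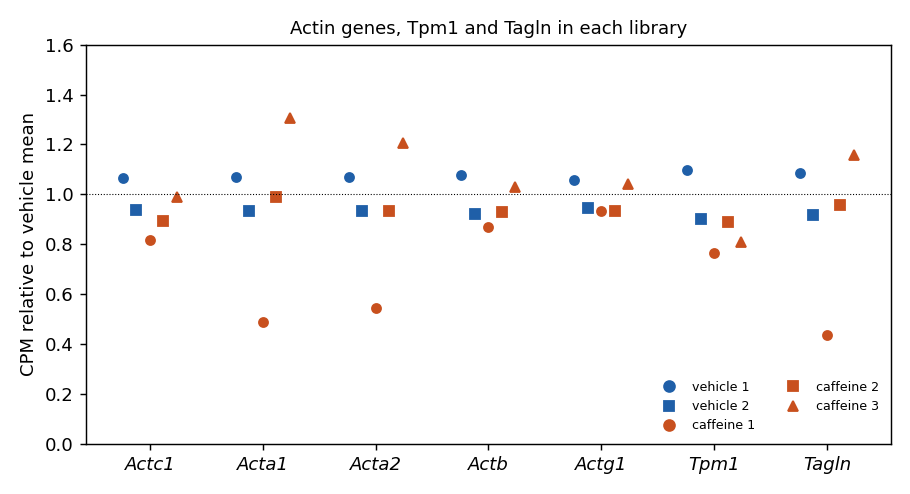
CPM of 5 actin genes, Tpm1 and the smooth muscle gene Tagln in each library, divided by the mean of the 2 vehicle libraries (dotted line at 1). Caffeine replicate 1 (orange circles) is the lowest library of all 7 genes, at 0.487 for Acta1, 0.544 for Acta2 and 0.435 for Tagln, while caffeine replicate 3 (orange triangles) is between 1.16 and 1.31 for those 3 genes.

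Caffeine replicate 1 stood at 0.487 of the vehicle mean for Acta1 and 0.544 for Acta2, against 0.816 for Actc1 and 0.931 for Actg1. Caffeine replicate 3 stood at 1.31 for Acta1 and 1.21 for Acta2. The spread of these 2 actins between the caffeine libraries was wider than the difference between the group means. Tagln, which encodes the smooth muscle protein transgelin, had the same order, at 343 and 290 CPM with vehicle and 138, 303 and 366 CPM with caffeine. The 5 smooth muscle markers summed to 727 and 621 CPM with vehicle and 486, 669 and 746 CPM with caffeine, all 5 being detected. Of the other 4, Mylk (myosin light chain kinase) went the other way in caffeine replicate 1, at 23.0 CPM against 5.54 to 7.99 CPM in the other libraries. Cnn1 (calponin) was at 271 and 222 CPM with vehicle and 232, 258 and 256 CPM with caffeine, and Myh11, the smooth muscle myosin, was at most 0.602 CPM. The part of smooth muscle cells in the values of Acta1 and Acta2 was not tested.

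Actg2 (chr6:83512909-83536251, minus strand, 9 exons), the enteric smooth muscle actin, was barely detected, with 11 to 21 counts per library. It was at 0.741 and 0.911 CPM with vehicle and at 0.457, 0.902 and 0.953 CPM with caffeine, which overlap. The log2 fold change was -0.10 (SE 0.43, edgeR adjusted p = 0.999), and caffeine replicate 1 was the lowest library here too.

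The cytoplasmic actins varied less. Actb (chr5:142903116-142906724, minus strand, 6 exons) was at 2164 and 1852 CPM with vehicle and at 1744, 1862 and 2063 CPM with caffeine. The log2 fold change was -0.09 (SE 0.13, edgeR adjusted p = 0.999). Actg1 (chr11:120345690-120348484, minus strand, 6 exons) was at 1542 and 1380 CPM with vehicle and at 1361, 1366 and 1524 CPM with caffeine. Its log2 fold change was -0.04 (SE 0.13, edgeR adjusted p = 0.999), and with no scaling between libraries it was 0.02. On the Ensembl gene table it was -0.17 (SE 0.13, edgeR adjusted p = 0.953). Both genes overlapped between the groups. As a share of the summed actin level per kilobase, Actg1 was at 6.24% and 6.37% with vehicle and at 7.41%, 6.51% and 6.41% with caffeine. The groups did not overlap, by a margin that was small beside the spread, and the exact permutation test gave p = 0.4 (2 against 3 libraries, smallest possible p = 0.1). With Ensembl gene counts the difference of this share was -0.07 percentage points, with its sign turned.

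Counts of Actg1 and Tpm3 differed between the RefSeq and Ensembl tables, and these genes have near-identical copies. A BLAST search of GENCODE M21 transcripts (at least 90% identity over at least 80% of the other transcript) found 21 similar genes for Actg1, 7 for Tpm3, 1 for Actb and 1 for Tpm4. Many of those for Actg1 were miRNA annotations of 83 or 84 bases, which match only a short stretch of the gene. None was found for Actc1, Acta1, Acta2, Actg2, Tpm1 or Tpm2. The RefSeq gene table held none of the similar genes. The Ensembl gene table held 5 for Actg1, all processed pseudogenes, and 1 for each of Tpm3, Actb and Tpm4. There they took 42.7% to 51.8% of the joint count of Actg1 and its copies, and 32.8% to 59.7% for Tpm3. For Tpm4 the copy took 17.4% to 21.6%, and for Actb 4.54% to 5.36%. The Actg1 copies were higher in every caffeine library, at 742 and 617 CPM with vehicle and 750, 763 and 780 CPM with caffeine, while Actg1 with its copies overlapped. Tpm3 with its copy was lower in every caffeine library, at 353 and 332 CPM with vehicle and 292, 315 and 332 CPM with caffeine, but vehicle replicate 2 and caffeine replicate 3 were nearly equal. The Tpm4 copy was also lower in every caffeine library, and Tpm4 with it overlapped. The RefSeq count of Actg1 was 1.56 to 1.81 times the Ensembl count and that of Tpm3 1.22 to 1.68 times. On the Ensembl gene table the log2 fold change of Tpm3 was -0.02 (SE 0.19). Values of Actg1 and Tpm3, and to a lesser degree of Tpm4 and Actb, are therefore uncertain beyond their SE.

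Tpm1 was by far the main tropomyosin of the ventricle. It was at 2928 and 2400 CPM with vehicle and at 2038, 2370 and 2151 CPM with caffeine. Every caffeine library was below both vehicle libraries, but vehicle replicate 2 and caffeine replicate 2 differed by little. Their order depended on the scaling between libraries. Before scaling, Tpm1 took 52700 of 22397199 counts in vehicle replicate 2 and 55144 of 23002149 in caffeine replicate 2, a higher fraction in the caffeine library. The means were 2664 ± 373 CPM (SD, n = 2) and 2186 ± 169 CPM (SD, n = 3). The log2 fold change was -0.29 (SE 0.14), with an unadjusted p of 0.0564 and an edgeR adjusted p of 0.980, so Tpm1 did not pass. It was -0.14 without vehicle replicate 1 and -0.45 without vehicle replicate 2, and no left-out library gave a smaller edgeR adjusted p than 0.436. Divided by the summed cardiomyocyte markers of the same library, Tpm1 stood at 10.3% and 9.09% with vehicle and at 8.25%, 9.93% and 9.86% with caffeine. On that scale the groups overlapped, as they did for 8 of the 10 members. Actg1, at 5.44% and 5.23% with vehicle and 5.51%, 5.72% and 6.98% with caffeine, and Tpm2, at 0.246% and 0.244% and at 0.280%, 0.283% and 0.353%, were higher in every caffeine library. The marker sum itself was lower in every caffeine library, so a gene with level CPM comes out higher on this scale. How many of all genes separate on it was not computed. The part of cardiomyocyte content in the lower Tpm1 values was not tested.

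Tpm2 (chr4:43513726-43523554, minus strand, 9 exons), the beta tropomyosin of slow and smooth muscle, was at 69.8 and 64.5 CPM with vehicle and at 69.3, 67.6 and 76.9 CPM with caffeine. The log2 fold change was 0.08 (SE 0.13, edgeR adjusted p = 0.999). The libraries overlapped, and caffeine replicate 3 was the highest. Tpm3 (chr3:90072651-90100902, plus strand), a tropomyosin of slow muscle and of the cytoskeleton, was at 288 and 251 CPM with vehicle and at 255, 228 and 263 CPM with caffeine, with a log2 fold change of -0.12 (SE 0.13, edgeR adjusted p = 0.999). Tpm4 (chr8:72135292-72153129, plus strand, 8 exons), a cytoskeletal tropomyosin, was at 315 and 279 CPM with vehicle and at 258, 331 and 295 CPM with caffeine. Its log2 fold change was -0.01 (SE 0.14, edgeR adjusted p = 0.999), and with no scaling it was 0.05. The groups of both genes overlapped.

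**Figure D3:**
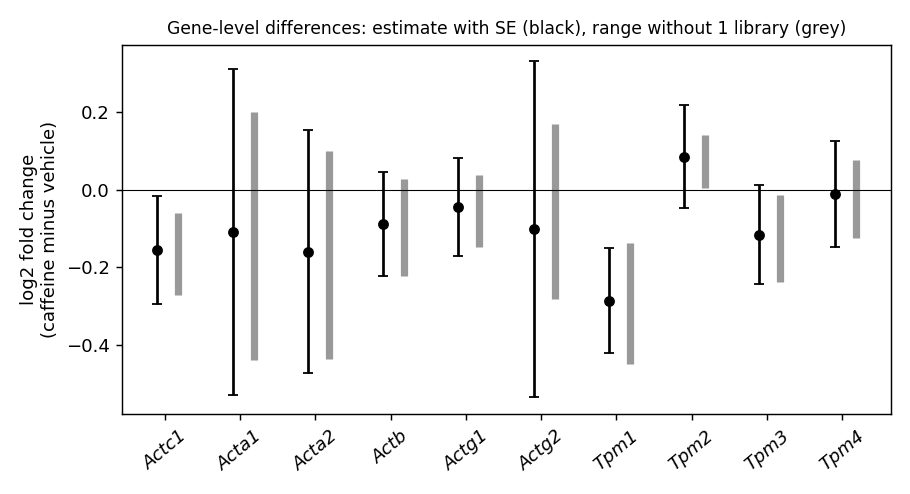
Log2 fold change, caffeine minus vehicle, of each gene (black points with bars of 1 SE) and its range when each library was left out in turn (grey bars). The points of all genes but Tpm2 lie below 0, and the grey bars of Actc1, Tpm1 and Tpm3 stay below 0 while those of Acta1, Acta2, Actb, Actg1, Actg2 and Tpm4 cross it.

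The make-up of the tropomyosin family was described as shares of its summed level. Tpm1 was 88.3% and 87.4% of the summed tropomyosin level per kilobase with vehicle and 85.7%, 86.7% and 85.4% with caffeine. Tpm4 was 5.51% and 5.92% with vehicle and 6.35%, 7.05% and 6.81% with caffeine. Tpm2 was 1.33% and 1.47% with vehicle and 1.84%, 1.58% and 1.91% with caffeine. None of these 3 shares overlapped between the groups: the Tpm1 share was lower in every caffeine library, and the shares of Tpm4 and Tpm2 were higher. The mean differences were -1.93 percentage points for Tpm1 (exact permutation p = 0.1), 1.02 for Tpm4 (p = 0.1) and 0.37 for Tpm2 (p = 0.2), where 0.1 is the smallest p that 2 against 3 libraries allow. Shares of a sum are tied to each other, so these are not separate results. How often such shares separate in other gene families was not computed. Tpm3, at 4.88% and 5.17% with vehicle and 6.09%, 4.71% and 5.88% with caffeine, overlapped.

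Among Tpm1 transcripts the striated form dominated. The RefSeq transcript NM_001164248 (exons 1a, 2b, 6b and 9a) held 92.4% and 91.0% of the Tpm1 counts with vehicle and 88.8%, 90.2% and 89.8% with caffeine. Its levels were 2700 and 2174 CPM with vehicle and 1808, 2130 and 1933 CPM with caffeine. It was lower in every caffeine library, with a log2 fold change of -0.32 (SE 0.14, edgeR adjusted p = 0.684). The second form, NM_024427 (1a, 2b, 6b and 9d), was at 167 and 167 CPM with vehicle and at 159, 165 and 135 CPM with caffeine. It too was lower in every caffeine library, although caffeine replicate 2 was close to the vehicle libraries.

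Some minor Tpm1 forms were higher with caffeine instead. NM_001164250 (1a, 2b, 6a and 9d) was at 3.70 and 4.53 CPM with vehicle and at 5.18, 5.65 and 7.17 CPM with caffeine. NM_001164254 (1b, 6a and 9a) was at 13.4 and 11.0 CPM with vehicle and at 15.8, 15.4 and 16.5 CPM with caffeine. NM_001164255 (1a, 2b, 6b and 9c) was at 2.51 and 3.17 CPM with vehicle and at 4.56, 3.90 and 4.45 CPM with caffeine. These 3 transcripts did not overlap between the groups and had log2 fold changes of 0.54, 0.39 and 0.60. The transcripts NM_001164251 (1a, 2b, 6a and 9a), at 21.6 and 22.2 CPM with vehicle and 21.9, 28.0 and 43.0 CPM with caffeine, and NM_001164249 (1a, 2a, 6b and 9d), at 13.3 and 6.57 CPM and 18.6, 11.0 and 10.8 CPM, overlapped. So did the rarest tested form NM_001164252 (1b, 6b and 9d), at 1.45 to 2.24 CPM. Over the members' 22 tested RefSeq transcripts, 3 were higher and 3 lower without overlap, where 12.2% and 11.0% of all tested transcripts were. None of the 22 passed in edgeR (0% of the 18418 tested passed), 1 had an unadjusted p under 0.05 (7.36% of all tested transcripts did), and DESeq2 called 0.

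Transcript usage asks whether some transcripts of a gene gain at the cost of others, and edgeR's diffSpliceDGE gave its test. On RefSeq, Tpm1 passed over its 8 tested transcripts (adjusted p = 0.0421), as did 3.24% of the 2897 genes tested. The call was lost whichever library was left out, with adjusted p between 0.0859 and 0.372. Tpm3 (0.540), Tpm2 (1) and Acta1 (1) did not pass. Counted by exon per kilobase, the 6a choice was 1.45% and 1.69% with vehicle and 2.34%, 2.25% and 3.27% with caffeine. The first exon 1b was 0.679% and 0.699% with vehicle and 1.18%, 0.973% and 1.12% with caffeine. The 9c end was 0.101% and 0.156% with vehicle and 0.265%, 0.194% and 0.243% with caffeine. These 3 minor choices were higher in every caffeine library, and each gave an exact permutation p of 0.1, the smallest possible. Exon 2a, at 0.321% and 0.195% with vehicle and 0.654%, 0.331% and 0.355% with caffeine, did not overlap either (exact permutation p = 0.4). The 9d end, at 4.16% and 4.94% with vehicle and 6.05%, 5.12% and 4.74% with caffeine, overlapped. These shares come from estimated counts in which reads of shared exons were divided among transcripts, and that division adds an error no test here includes. Separation of single exon choices was not counted over all genes. On Ensembl transcripts, the share outside a gene's top transcript was higher without overlap in 23.7% of 6767 genes and lower in 13.5%.

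**Figure D4:**
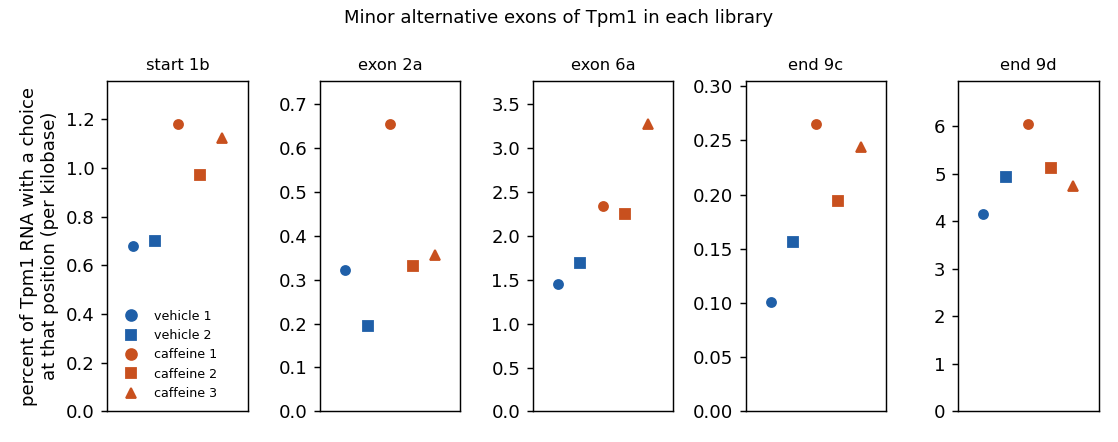
Share of Tpm1 RNA with each minor alternative exon in each library, as percent of the transcripts with a choice at that position, on estimated counts per kilobase. All 3 caffeine libraries (orange) lie above both vehicle libraries (blue) for 1b, 2a, 6a and 9c, and the groups overlap for 9d.

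The Tpm3 transcripts differed among themselves. NM_001253740 was at 122 and 120 CPM with vehicle and at 106, 84.3 and 89.5 CPM with caffeine, lower in every caffeine library (log2 fold change -0.37, SE 0.13, edgeR adjusted p = 0.603). NM_001271764 was at 124 and 106 CPM with vehicle and at 118, 125 and 141 CPM with caffeine, with overlap. As shares of Tpm3, NM_001253740 was at 42.3% and 48.0% with vehicle and 41.7%, 37.1% and 34.0% with caffeine, and NM_001271764 at 43.1% and 42.3% and at 46.2%, 54.9% and 53.6%. The first share was lower and the second higher in every caffeine library, but Tpm3 did not pass the usage test (edgeR adjusted p = 0.540). Separation of single transcript shares was not counted over all RefSeq genes. These 2 transcripts were matched to the same GENCODE M21 transcript. A near-identical copy of Tpm3 is missing from the RefSeq gene table, and its part in these shares was not tested. NM_001253738, at 13.6% and 9.04% with vehicle and 11.4%, 7.82% and 11.9% with caffeine, overlapped, and the long form NM_022314 was at most 1.07%. For Tpm2, NM_009416 held 90.2% to 92.9% of the counts, and its groups overlapped. Acta1 was nearly all NM_009606, at 97.4% to 98.2% of the gene.

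**Figure D5:**
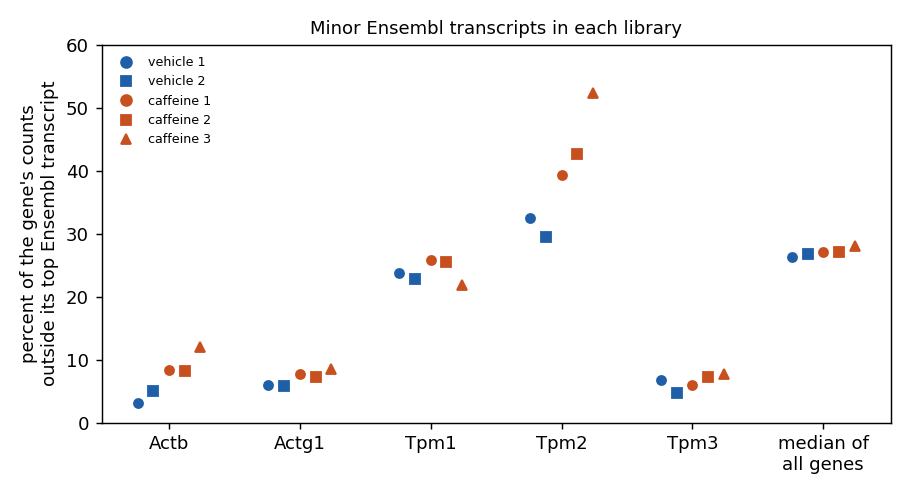
Percent of a gene's counts outside its most abundant Ensembl transcript in each library, for 5 members and, on the right, the median of all 6767 genes with enough counts. Caffeine libraries (orange) lie above vehicle libraries (blue) for Actb, Actg1 and Tpm2 and, by a smaller step, for the median of all genes.

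The Ensembl transcript table, which lists more transcripts per gene, showed minor forms of the cytoplasmic actins. The share of Actb counts outside its top transcript Actb-001 was 3.05% and 5.08% with vehicle and 8.28%, 8.17% and 12.0% with caffeine. For Actg1, outside Actg1-201, it was 5.99% and 5.78% with vehicle and 7.73%, 7.30% and 8.57% with caffeine. For Tpm2, outside Tpm2-201, it was 32.4% and 29.5% with vehicle and 39.3%, 42.7% and 52.4% with caffeine. All 3 shares were higher in every caffeine library, where 23.7% of all 6767 genes were higher without overlap. The median share over those genes was also higher in every caffeine library, at 26.3% and 26.8% with vehicle and 27.1%, 27.2% and 28.1% with caffeine. The part of this common shift in the 3 shares was not tested. Tpm1, at 23.7% and 22.8% with vehicle and 25.8%, 25.5% and 21.8% with caffeine, overlapped, and so did Tpm3.

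On data simulated from the RefSeq transcript counts, the usage test called unchanged genes more often than its threshold states, which bears on the RefSeq call of Tpm1. The Ensembl transcripts were not simulated, so how far the calls that follow share this fault is unknown. In the usage test on Ensembl transcripts, Actb passed (6 tested transcripts, edgeR adjusted p = 0.000348), as did Actg1 (7 transcripts, 0.000874) and Tpm1 (18 transcripts, 0.0188), where 6.92% of the 7540 genes tested passed. Tpm2 (0.222) and Tpm3 (0.593) did not. Without vehicle replicate 1 the adjusted p was 0.0624 for Actb and 0.0608 for Actg1, so neither call held without that library. The Tpm1 call was lost without either vehicle library and without caffeine replicate 2 or 3, with adjusted p up to 0.209. For single transcripts, edgeR called 0 of the members' 45 tested Ensembl transcripts (0% of 34905 passed), with 15 at an unadjusted p under 0.05, where 10.7% of all tested transcripts were. DESeq2 called 4 of them, where it called 2.68% of the 37093 transcripts it tested. Of the 45 tested transcripts 16 were higher and 8 lower without overlap, against 15.7% and 13.7% of all tested transcripts. The 4 called by DESeq2 were Actb-007 (DESeq2 adjusted p = 2.41e-07), Actb-002 (0.000174), Actg1-007 (0.000101) and Tpm1-002 (0.0191). They are named for those calls, after their values were seen.

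Actb-007 was at 17.7 and 19.1 CPM with vehicle and at 47.9, 51.6 and 81.6 CPM with caffeine, a log2 fold change of 1.71 (SE 0.26, edgeR adjusted p = 0.193). Every caffeine library was above the vehicle libraries, and Actb-007 held 2.39% of the Actb counts in the mean. Actb-002 was rarer, at 0.237 and 0.300 CPM with vehicle and at 1.78, 3.29 and 4.82 CPM with caffeine (log2 fold change 3.60, SE 0.62, edgeR adjusted p = 0.208). Actg1-007 was at 3.08 and 2.10 CPM with vehicle and at 9.04, 8.06 and 9.19 CPM with caffeine (log2 fold change 1.75, SE 0.29, edgeR adjusted p = 0.205). Tpm1-002, with 1.05% of the Tpm1 counts, was lower in every caffeine library, at 32.0 ± 4.99 CPM (SD, n = 2) with vehicle and 19.0 ± 1.88 CPM (SD, n = 3) with caffeine (log2 fold change -0.75, SE 0.17, edgeR adjusted p = 0.267). All 5 tested minor Actb transcripts were higher without overlap, where 15.7% of all tested Ensembl transcripts were. They are parts of the same gene's estimated counts, so these are not separate results. The main transcript Actb-001, at 2030 and 1675 CPM with vehicle and 1519, 1619 and 1708 CPM with caffeine, overlapped.

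Of the 12 Ensembl transcripts with at least 10% of their gene, Actc1-001, Acta1-201, Acta2-201 and Tpm4-001 held nearly all of their gene's counts, and all 4 overlapped between the groups as their genes did. Actg2-002, with 84.7% of its gene, was at most 0.772 CPM and overlapped. Actg1-201 was lower in every caffeine library, at 850 and 784 CPM with vehicle and 663, 653 and 757 CPM with caffeine (log2 fold change -0.24, SE 0.12, edgeR adjusted p = 0.535). Tpm3-004, with 93.5% of Tpm3, was at 181 and 137 CPM with vehicle and 183, 117 and 152 CPM with caffeine, with overlap (log2 fold change -0.07, SE 0.22). Tpm1-012, with 12.7% of Tpm1, overlapped too, at 409 and 290 CPM with vehicle and 251, 314 and 196 CPM with caffeine (log2 fold change -0.46, SE 0.23). Tpm2-002 was at 16.4 and 15.5 CPM with vehicle and at 21.6, 22.7 and 33.6 CPM with caffeine, a log2 fold change of 0.70 (SE 0.24, edgeR adjusted p = 0.377). Tpm2-201 was lower in every caffeine library, at 44.5 and 42.3 CPM with vehicle and 38.7, 35.5 and 33.6 CPM with caffeine. Tpm1-003, with 76.1% of the Tpm1 counts in the mean, was at 2178 and 1775 CPM with vehicle and at 1442, 1676 and 1588 CPM with caffeine, lower in every caffeine library. The sources used here do not say which exons these Ensembl transcripts hold.

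The other genes of the thin filament and of actin regulation gave 0 calls in every list. The 21 tested of 23 striated thin filament genes (troponins, tropomodulins, leiomodins, nebulin and others) had a negative difference in 20 cases and a median log2 fold change of -0.16, against 0.01 over all genes tested. Of these 21, 7 were lower without overlap and 0 higher, where 9.27% and 11.2% of all tested genes were, and 3 had an unadjusted p under 0.05, against 5.20%. The cardiomyocyte markers, which share Tnnt2 with this list, were lower beside it: 5 of 9 were lower without overlap, with a median of -0.27. The part of cardiomyocyte content in the thin filament values was not tested. Tnni3, the cardiac inhibitory troponin, was at 523 and 407 CPM with vehicle and at 372, 366 and 335 CPM with caffeine. Its log2 fold change was -0.38 (SE 0.14, edgeR adjusted p = 0.889). Tnnt3 and Tnni2, fast skeletal troponins, had log2 fold changes of -0.83 (SE 0.32) and -0.58 (SE 0.23). The groups did not overlap for any of these 3 genes.

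The 31 actin turnover genes (profilin, cofilins, capping and nucleating proteins and others) had a negative difference in 21 cases, with a median of -0.06. The smallest p were those of Tmsb10, a thymosin that binds actin monomers, at -0.22 (SE 0.12), the depolymerising factor Dstn at -0.23 (SE 0.13) and the formin Diap2 at -0.28 (SE 0.19). The 12 smooth muscle contractile genes were split 6 to 6, with a median of -0.01, and Myl9 was at -0.23 (SE 0.14), Myh11 at 0.95 (SE 0.61) and Des at -0.15 (SE 0.13). The 12 genes of SRF, the serum response factor that drives actin genes, and its cofactors were positive in 8 cases, with a median of 0.09. In that list the target Cyr61 was at 0.36 (SE 0.16), the cofactor Mkl1 at 0.29 (SE 0.14) and Mkl2 at -0.24 (SE 0.14). The 10 tested of 11 regulators of tropomyosin splicing were positive in 9 cases, with a median of 0.07 and the values of Mbnl1 at 0.19 (SE 0.13), Rbm24 at 0.16 (SE 0.12) and Rbm20 at 0.17 (SE 0.15). Without overlap, 4 of the 12 SRF genes were higher and 1 lower, and 2 of the 10 splicing regulators were higher and 0 lower. Of the 31 turnover genes 3 were lower and 0 higher, and of the 12 smooth muscle genes 0 were either. Over all tested genes these shares were 11.2% higher and 9.27% lower. In edgeR 1 of the 12 SRF genes had an unadjusted p under 0.05. The turnover, smooth muscle and splicing lists had 0 such genes, and DESeq2 and limma-voom called 0 in all 5 lists.

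Promoters are shown because actin genes are known targets of SRF, which binds the CArG box. The consensus of this element is 10 bases that start with CC, end with GG and have only A or T between. A match on 1 strand is also a match on the other. In the 250 bases before the gene start (RefSeq, GRCm38.p6), a match was found in 3 of the 8 members with an entry, in Actc1, Acta1 and Actg1. Among all genes listed there, 439 of 27025 (1.62%) had a promoter with a match. The stretches of 50 bases around the matches are printed 5′ to 3′ on the minus strand, with the box in capitals.
Actc1: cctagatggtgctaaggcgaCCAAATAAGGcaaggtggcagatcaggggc
Acta1: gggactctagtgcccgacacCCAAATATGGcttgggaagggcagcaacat
Actg1: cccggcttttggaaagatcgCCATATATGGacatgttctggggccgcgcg
They lie at chr2:114052893-114052942, chr8:123894819-123894868 and chr11:120348556-120348605, with the first base of the box 47, 73 and 90 bases before the start. These starts are those of the promoter annotation. For Actc1 and Actg1 they lie further upstream than the gene positions given above, so the boxes are farther from those positions. No match was found in these windows of Acta2, Tpm1, Tpm2, Tpm3 or Tpm4. Only exact matches were searched, so boxes that depart from the consensus or lie outside the windows would be missed. Actb and Actg2 had no promoter entry and were not searched. The 3 genes with a match had log2 fold changes of -0.15, -0.11 and -0.04, inside the range of the other members.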

How the data were processed

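RNA of embryonic mouse heart ventricles was measured in 2 vehicle and 3 caffeine libraries. The authors deposited 4 tables of estimated counts, per gene and per transcript on RefSeq and on Ensembl release 71, which were not scaled between libraries. TopHat and Partek, with mm10 (GRCm38), appear in the submitters' processing notes without versions. The sources used here give neither strand nor read length. Positions are on mm10, with the end taken as the stop minus 1: of 16933 genes matched by symbol to the reference, 8555 had the same start, and of these 5907 had a stop 1 past the annotated end and 249 the same end.

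The estimated counts were rounded. Genes were filtered with filterByExpr, scaled by TMM (factors 0.970 to 1.02) and tested with edgeR 4.0.16 in R 4.3.3 (two-sided quasi-likelihood test, robust). P-values were adjusted by Benjamini-Hochberg over the whole table, with a threshold of 0.05. Transcript usage was tested with diffSpliceDGE. Levels per kilobase used lengths of matching GENCODE M21 transcripts. Similar genes were found with BLAST 2.17.0. Alternatives included DESeq2 1.42.0, limma-voom (limma 3.58.1), other scalings and filters, the Ensembl tables, a replicate block and each library left out. The steps were tested on data simulated from the RefSeq counts, where the transcript and usage tests called unchanged features more often than the 0.05 threshold states.

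Every fold change is caffeine minus vehicle, and its SE is its absolute value divided by the root of edgeR's F statistic. The common biological coefficient of variation was 0.145. Libraries are separate pools, so p-values measure the spread between pools. All 10 members were named whatever their result, with the tested RefSeq transcripts of tropomyosins, Ensembl transcripts holding at least 10% of their gene, and at most the 3 genes with the smallest p of each list. Marker lists are given by their summed levels or by counts. The members and lists were chosen with earlier results of these data known, and lists are described by counts and medians only.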

Additional observations from a re-analysis of the deposited data

How the results depend on the processing

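The calls depended on the setting. Passing RefSeq genes numbered 1, against 6 with no low-count filter, 18 with DESeq2, 52 with the replicate number as a block, 2 on the Ensembl gene table and 0 to 18 with 1 library left out. Passing RefSeq transcripts numbered 0, against 198 with DESeq2, 9 with the block and 0 to 1 with 1 library left out. Genes with changed usage numbered 94 on RefSeq, against 30 with the Simes adjustment, 2 with the block, 522 on the Ensembl table and 10 to 52 with 1 library left out. On Ensembl there were 522, against 265 with Simes, 2 with the block and 66 to 1028 with 1 library left out. Of the 10 genes and 22 tested transcripts, none was called in any of 120 and 198 alternative values.

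The adjusted p of Tpm1 usage on RefSeq was 0.156 with the block and 0.0859 to 0.372 with 1 library left out. On Ensembl it was 0.185 with the block for Tpm1, 0.0941 for Actb and 0.145 for Actg1. With 1 library left out it ran from 0.0453 to 0.209 for Tpm1, from 0.00126 to 0.0624 for Actb and from 0.00642 to 0.0608 for Actg1. The replicate numbers are not stated to pair libraries. Caffeine replicate 3 has no vehicle library of its number, so it adds nothing to the difference in the block fits. Those fits, for genes, transcripts and usage, rest on 2 assumed pairs. The 2 same-numbered pairs had correlations of their deviations of -0.02 and 0.13 across genes. Vehicle replicate 1 and caffeine replicate 3, with unlike numbers, stood at 0.13 as well. With 2 vehicle libraries the deviations mirror each other, so each value returns with its sign turned for the other vehicle library. These correlations therefore cannot decide whether the numbers pair libraries.

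Directions turned in 10 of the 120 gene values, in 6 genes. With no scaling the log2 fold change was 0.0167 for Actg1 and 0.0485 for Tpm4. With 1 library left out it ran from -0.44 to 0.20 for Acta1, -0.44 to 0.10 for Acta2, -0.22 to 0.0277 for Actb, -0.15 to 0.0368 for Actg1, -0.28 to 0.17 for Actg2 and -0.12 to 0.0769 for Tpm4. Among transcripts 15 of 198 values turned, in 11 transcripts. Left-out ranges were -0.12 to 0.0824 for NM_001001491 (Tpm4), -0.00871 to 1.03 for NM_001164249 and -0.0132 to 0.30 for NM_001164252 (Tpm1), -0.61 to 0.20 for NM_001253738 (Tpm3), -0.69 to 0.25 for NM_001272041 and -0.43 to 0.20 for NM_009606 (Acta1), -0.18 to 0.39 for NM_001277876 (Tpm2), -0.44 to 0.10 for NM_007392 (Acta2), -0.22 to 0.0331 for NM_007393 (Actb), -0.15 to 0.0422 for NM_009609 (Actg1) and -0.28 to 0.17 for NM_009610 (Actg2).

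The share differences moved for Actg1 to -0.0732 percentage points on Ensembl gene counts, and for Tpm1 and Tpm4 to -2.71 and 1.46 with no division by length. With 1 library left out they ran from -1.84 to 0.58 for Actc1, -1.33 to 0.99 for Acta2, -0.45 to 0.57 for Acta1 and 0.15 to 0.66 for Actg1, with the extremes given by leaving out caffeine replicate 1 or 3. Those of Tpm1, Tpm2 and Tpm4 kept their sign. This Ensembl version and the Ensembl usage settings were chosen after seeing the data. Shares from Ensembl transcripts, planned, were not run because those transcripts carry no length in the sources used here. The cause of these shifts was not tested. With 2 vehicle libraries, leaving 1 out assumes that the other varies like the caffeine libraries. Depth limits Actg2, with 11 to 21 counts, and the rarest transcripts.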
